A study of Homo sapiens
Mus musculus with 16 samples.

Results

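Nintedanib blocks the receptor tyrosine kinases for VEGF, PDGF and FGF, and the question here was which transcripts of the tumour cells differed when it was given, whether or not the PI3K inhibitor alpelisib was given with it. The comparison took the 8 libraries from tumours given nintedanib, 4 with alpelisib (combination) and 4 without (nintedanib), against the 8 libraries from tumours not given it, 4 with alpelisib and 4 with vehicle. These are all 16 libraries of the series. Alpelisib entered the fit as a factor, so that the reported effect is the mean of 2 differences, combination minus alpelisib and nintedanib minus vehicle. Of 23368 genes listed in the human table, 20751 had a read in some library. Genes entered the test when 4 or more libraries had a normalised value of 1 or higher, which left 17663.

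All tumours were grown from ScaBER, an established human squamous bladder carcinoma line, in Hsd:Athymic Nude-Foxn1nu mice, which lack mature T cells. Combination tumours received nintedanib at 40 mg/kg and alpelisib at 25 mg/kg, nintedanib tumours received 40 mg/kg nintedanib, alpelisib tumours received 25 mg/kg alpelisib, and vehicle tumours received neither, for 14 days in each case. RNA was sequenced from its 3′ ends and reads were assigned to the human genome (tumour cells) and the mouse genome (host cells) in separate tables. Nothing in the labels ties a library to a separate animal. The p-values therefore cover the variation among these 16 libraries, which may be partly technical, and the model is 1 cell line.

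As background, VEGF receptors sit mainly on endothelial cells and PDGF receptors on pericytes and fibroblasts, whereas FGF receptors are also found on bladder epithelium, where FGFR3 is a known oncogene. Drugs of this class act on tumours in part through their vessels, and poorly perfused tumour cells stabilise the transcription factor HIF1, which switches on genes for glucose uptake, glycolysis, pH control and vessel growth.

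Human reads numbered 8303617 to 18568119 per library, and 1 read was worth 0.674 to 1.68 units of the normalised value. Markers of squamous carcinoma were high in every library: KRT5, a basal keratin, stood at 62230 to 105700 units with nintedanib and 54180 to 103700 without it. Markers of other cell types in the human table were low for endothelium (6 of 8 markers tested, summed level 1.454 to 6.873 CPM, reads scaled to a common library total, with nintedanib and 1.344 to 2.768 without) and leukocytes (7 of 8 tested, 23.91 to 35.87 and 14.87 to 38.74). The 8 fibroblast and pericyte markers summed to 3061 to 6014 CPM with nintedanib and 3122 to 5095 without it, nearly all of it from COL1A1, which stood at 44437 to 89828 units with nintedanib and 45011 to 68467 without it. Skeletal muscle markers summed to 9.787 to 190.6 with nintedanib and 9.775 to 28.63 without it, and were highest in nintedanib 4 and combination 1. Mouse reads made up 26.7% ± 4.89 of all reads with nintedanib and 24.1% ± 3.42 without it (SD, n = 8 each), a difference of 2.60 percentage points (exact permutation test within alpelisib levels, 2-sided, p = 0.225). Endothelial markers in the mouse table, which was normalised separately, summed to 259.2 to 651.2 CPM with nintedanib and 529 to 735 without it. In bulk tumours, fewer cells of a type and less RNA per cell cannot be told apart.

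Averaged over alpelisib, nintedanib was accompanied by higher medians of hypoxia response, angiogenic ligand and mesenchymal genes, and by lower medians of antigen presentation, DNA replication, mitosis, respiratory chain and ribosome biogenesis genes. These medians describe the lists and were not tested. No single gene passed the test: 0 of 17663 genes (0%) had an adjusted p under 0.05 (limma, Benjamini-Hochberg), and the smallest adjusted p was 0.116. At an unadjusted p under 0.05 there were 2501 genes (14.2%), against 883 that the threshold alone would give, with 1271 higher (7.2%) and 1230 lower (6.96%). On the recovered reads, edgeR called 0 genes, with 2612 at an unadjusted p under 0.05, and DESeq2 called 134 of 17650 (0.759%), 85 higher and 49 lower. With the mouse share of reads as a covariate limma called 335 genes, 119 higher and 216 lower. Without nintedanib 4 and combination 1, the libraries rich in skeletal muscle transcript, it called 74, 25 higher and 49 lower. The mouse share was measured after treatment and was highest in these same libraries (34.0% in nintedanib 4, 31.5% in combination 1). The 2 settings are therefore not independent of each other. The 95% interval of the averaged log2 difference extended a median of 0.45 to either side and lay within 1 log2 unit of 0 for 65.6% of genes, so that a 2-fold difference lay outside the interval for those genes.

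**Figure D1:**
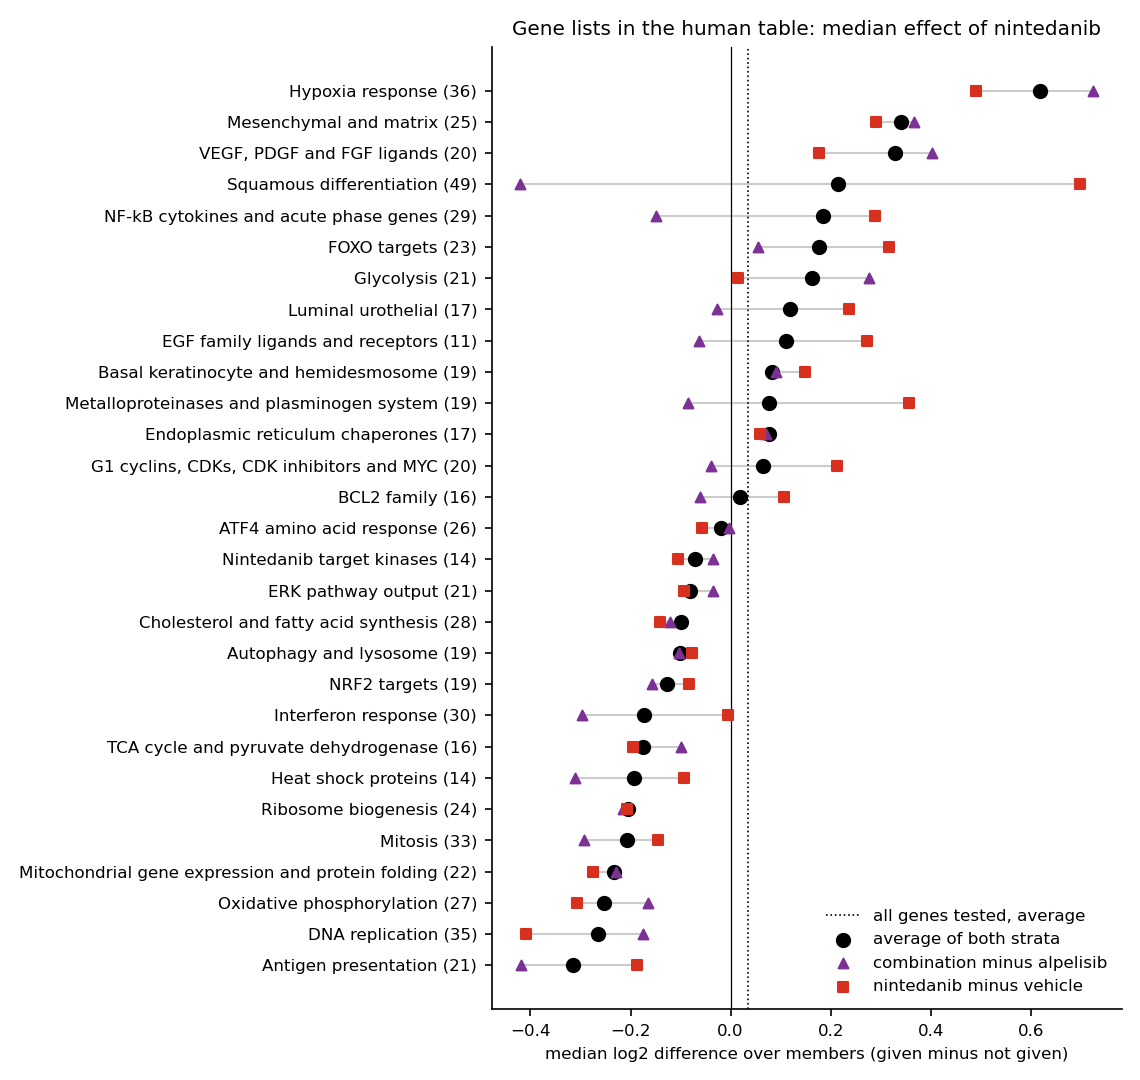
Median log2 difference (nintedanib given minus not given) over the tested members of each of 29 gene lists, with the number of members in parentheses; black circles are the average, triangles combination minus alpelisib, squares nintedanib minus vehicle, and the dotted line is the median of all 17663 genes at 0.03. The hypoxia response list is highest at 0.62 and antigen presentation lowest at -0.32, while the 2 strata of squamous differentiation lie on opposite sides of 0.

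In 12 genes the 8 nintedanib libraries did not overlap the other 8. All 8 were above in VLDLR, C4orf3, POU2F2 and PDZRN3 (4 of 17663 genes, 0.0226%), and all 8 were below in FGFR4, CKMT1A, CHCHD10, NDUFB10, ALDH16A1, SPRYD4, STAG3L2 and LGALS8-AS1 (8 of 17663, 0.0453%). These genes are named for that separation, which was seen in the data. VLDLR, which encodes the very low density lipoprotein receptor, stood at 100.5, 115, 156 and 161 units in combination libraries and 102, 147, 106 and 108 in nintedanib libraries, against 98.0, 55.4, 90.6 and 45.0 with alpelisib and 47.6, 33.5, 62.0 and 67.8 with vehicle. Its lowest nintedanib library lay just above its highest library without the drug, and the average log2 difference was 1.03 (SE 0.21, adjusted p = 0.116, limma). C4orf3 ran from 1328 to 2415 units, median 1579, with nintedanib and from 922 to 1253, median 1087, without it (0.61, SE 0.13, adjusted p = 0.116, limma). POU2F2, a POU family transcription factor, had a median of 108 units with nintedanib and 75.7 without it, and PDZRN3, a ubiquitin ligase, 20.4 and 8.51. Because these 4 genes were picked for that separation, each had to be higher in both strata. The difference of POU2F2 was 0.93 with alpelisib and 0.87 without it. VLDLR followed the mouse gene of the same symbol across the 16 libraries with a Pearson r above 0.7; the part of reads that fit both genomes was not tested.

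Among the 8 genes that were lower throughout, CKMT1A, CHCHD10 and NDUFB10 encode mitochondrial proteins. CKMT1A, a mitochondrial creatine kinase, stood at 117 to 236 units with nintedanib, median 159, and at 248 to 306, median 272, without it, so that its highest nintedanib library was below every library without the drug (-0.78, SE 0.16, adjusted p = 0.116, limma). CKMT1B is a near-identical copy, and the split of reads between the copies is uncertain. CHCHD10, a protein of the intermembrane space, had medians of 7294 and 9622 units (-0.75, SE 0.17), and NDUFB10, a subunit of respiratory complex I, 2231 and 2721 (-0.41, SE 0.12). STAG3L2 belongs to a family of near-identical copies, and reads of the antisense gene LGALS8-AS1 cannot be told from those of LGALS8 unless strand was used in counting, which is not given in the sources used here. DESeq2 called 9 of the 12 genes, all but NDUFB10, SPRYD4 and STAG3L2 (all genes 0.759%). It was run on the same libraries in which the separation was seen, so these calls are not independent support.

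**Figure D2:**
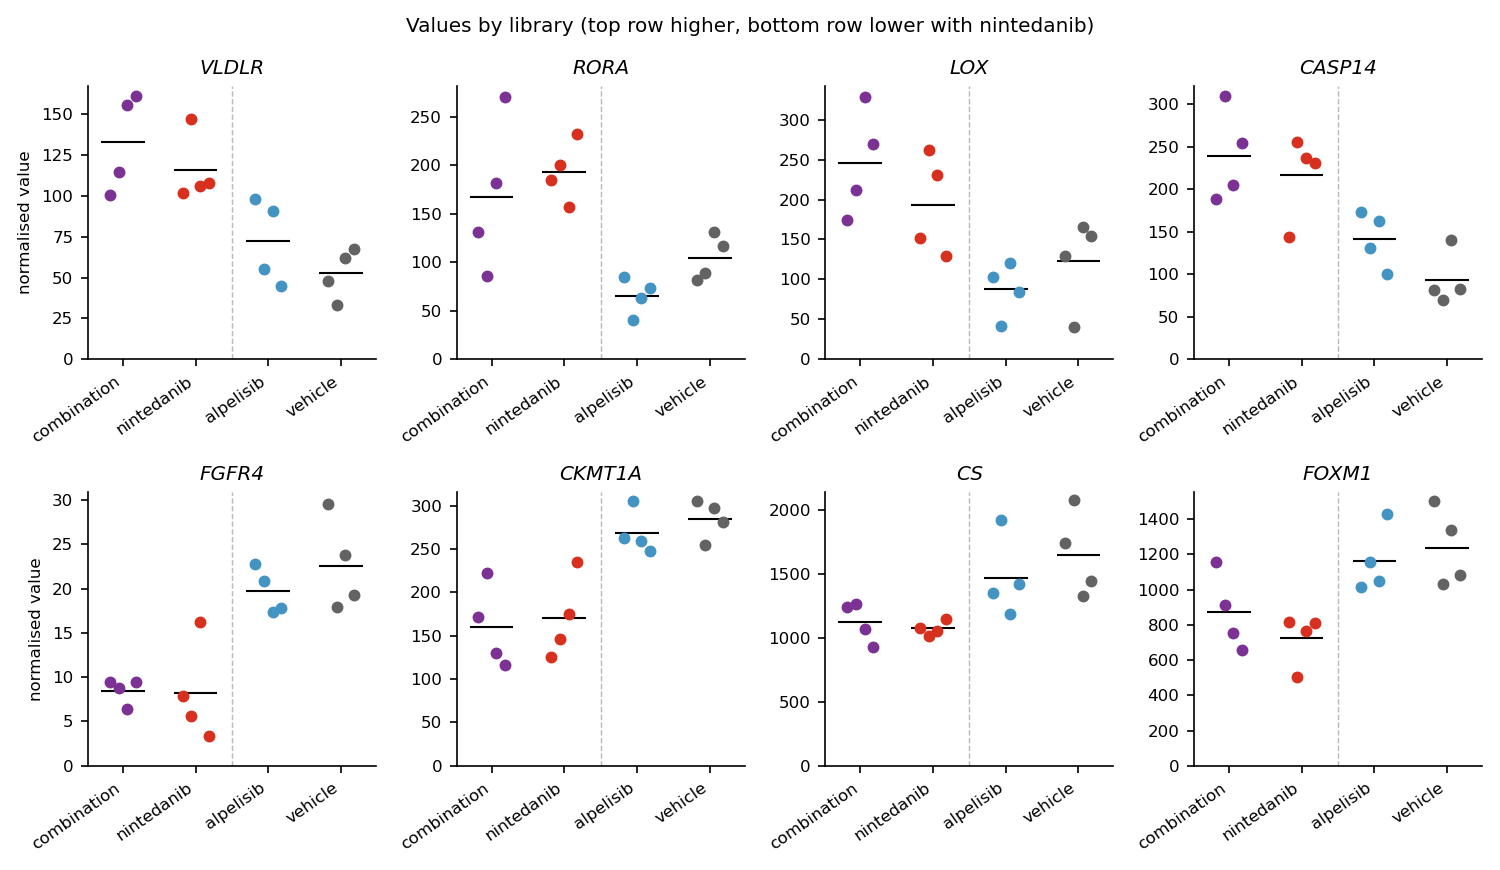
Normalised value in each library (points) and group mean (lines) for 4 genes that were higher and 4 that were lower with nintedanib; combination and nintedanib libraries are left of the dashed line, alpelisib and vehicle libraries right of it, and all axes start at 0. VLDLR, FGFR4 and CKMT1A show no overlap between the 8 libraries on each side, while RORA, LOX, CASP14, CS and FOXM1 overlap in a few libraries.

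The first list holds the kinases that nintedanib inhibits. Of 15 target kinases 14 were tested; FLT3 did not reach the filter. Their median difference was -0.07, against 0.03 over all genes, and 3 of 14 had an unadjusted p under 0.05, 1 higher and 2 lower (all genes 7.2% higher and 6.96% lower). FGFR4, a receptor for FGF19 among others, was the one that stood apart. It had 9.42, 8.76, 6.36 and 9.43 units in combination libraries and 7.83, 5.57, 16.2 and 3.37 in nintedanib libraries, against 22.8, 20.9, 17.4 and 17.8 with alpelisib and 29.5, 17.9, 23.8 and 19.2 with vehicle. The groups did not overlap, although the highest nintedanib library (16.2) lay close to the lowest alpelisib library (17.4), and the difference was -1.32 (SE 0.31, adjusted p = 0.153, limma), with -1.13 with alpelisib and -1.51 without it. FGFR4 was among the genes that DESeq2 called (adjusted p = 0.0284), and its values rest on few reads per library.

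FGFR3, the FGF receptor best known from bladder cancer, ran from 404 to 876 units, median 495, with nintedanib and from 476 to 743, median 671, without it. Combination 2 (876) was the highest of all 16, and the difference was -0.32 (SE 0.14, adjusted p = 0.312, limma). FGFR2 had medians of 224 and 241 units, and FGFR1 of 7.16 and 13.1 units, both with an unadjusted p of 0.05 or more. SRC and LYN, cytoplasmic kinases that nintedanib also inhibits, were both at -0.02 (medians of 855 and 899 units for SRC, 616 and 617 for LYN), with a sign that turned under other settings. The VEGF receptor genes FLT1, KDR and FLT4 reached at most 55.7, 5.05 and 6.73 units with nintedanib and 23.7, 4.47 and 1.13 without it. PDGFRA (at most 16.8 and 12.6 units) and PDGFRB (at most 34.6 in each) were low as well. In the mouse table, which was normalised separately, their means over the 16 libraries were 225 for FLT1, 406 for KDR, 122 for FLT4, 552 for PDGFRA and 789.9 for PDGFRB. PIK3CA, the target of alpelisib, had medians of 77.2 and 62.5 units (0.45, SE 0.26, adjusted p = 0.434, limma), with the highest value, 191, in combination 4.

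The list of VEGF, PDGF and FGF ligands, which also held ANGPT1 and FGFBP1, had a median above that of all genes. Of its 20 tested members 15 were above 0, and the median difference was 0.33. At an unadjusted p under 0.05, 5 were higher and 1 lower (all genes 7.2% and 6.96%). VEGFA, the main growth factor for blood vessels, stood at 1161, 1240.2, 2264 and 1546 units in combination libraries and 1029, 1377, 1320.3 and 804 in nintedanib libraries, against 988, 626, 1058 and 614 with alpelisib and 723, 868, 1046 and 1127 with vehicle. Only nintedanib 1 and nintedanib 4 fell within the range of the libraries without the drug. VEGFA followed its mouse counterpart with r above 0.7. The difference was 0.58 (SE 0.16, adjusted p = 0.177, limma), 0.91 with alpelisib and 0.26 without it. The other 4 were the growth factors PDGFB (0.97), PGF (0.71) and PDGFD (1.07) and ANGPT1 (1.23), a ligand of the TIE2 receptor. ANGPT1 rests on few reads, with medians of 2.46 units with nintedanib and 0.907 without it. Its mean in the mouse table, normalised separately, was 40.3. FGFBP1, a carrier that releases FGF from the matrix, was lower: 2062 to 3639 units, median 2813, with nintedanib and 2903 to 4342, median 3680.2, without it (-0.36, SE 0.12, adjusted p = 0.213, limma). Without nintedanib 1 the list's median was 0.21, and 2 to 8 members were higher at an unadjusted p under 0.05 when single libraries were left out (2 without combination 3 or alpelisib 4, 8 without combination 2 or alpelisib 3).

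The hypoxia response list had the largest median of the 29 lists. Of 36 members 35 were above 0 on average, 33 in both strata, and 24 were higher at an unadjusted p under 0.05 (66.7%, against 7.2% of all genes), with none lower. The median difference was 0.62, with 0.73 with alpelisib and 0.49 without it. Within strata, 19 of 36 members were higher in combination than in alpelisib tumours (all genes 4.71%) and 12 of 36 in nintedanib than in vehicle tumours (all genes 6.88%), at an unadjusted p under 0.05. No member reached an adjusted p under 0.05 in limma without a covariate. With the mouse share of reads as a covariate, limma called 15 of 36 members, all of them higher (all genes 0.674%). Among them were PDK1 (adjusted p = 0.0189, limma), RORA (0.0213) and VEGFA (0.0408). The mouse share was highest in nintedanib 4 and combination 1, both given nintedanib, so these calls are not separate support. DESeq2 called FAM162A, LOX, MXI1 and RORA, each higher (all genes 0.482%).

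RORA, a nuclear receptor that HIF1 induces, ran from 86.0 to 270.1 units, median 183, with nintedanib and from 40.7 to 131, median 83.5, without it. Combination 1 reached the same level as the highest vehicle library, combination 2 lay inside the range of the libraries without the drug, and the difference was 1.08 (SE 0.22, adjusted p = 0.116, limma). LOX, a collagen crosslinking enzyme and a classical HIF1 target, had 174, 212, 328 and 269 units in combination libraries and 152, 262, 230.1 and 129.6 in nintedanib libraries, against 103, 41.8, 121 and 84.8 with alpelisib and 129.6, 40.2, 166 and 155 with vehicle (1.16, SE 0.27, adjusted p = 0.153, limma). Every combination library exceeded every alpelisib library, whereas nintedanib and vehicle libraries overlapped. FAM162A, a mitochondrial protein induced by hypoxia, had medians of 3193 and 1994 units (0.66, SE 0.16, adjusted p = 0.164, limma), and about the same difference in both strata (0.68 with alpelisib, 0.65 without it).

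Other members with an unadjusted p under 0.05 included regulators of the pathway itself. The prolyl hydroxylases EGLN3 and EGLN1, which mark HIF1 for destruction, were higher by 0.86 and 0.37. BNIP3 and BNIP3L, receptors for removal of mitochondria, were higher by 0.63 and 0.73, and PDK1, the kinase that inactivates pyruvate dehydrogenase, by 0.60. DDIT4, an inhibitor of mTORC1, stood at 3512 to 10126 units, median 6670.5, with nintedanib and at 1339.7 to 7266, median 3700.2, without it (0.91, SE 0.27, adjusted p = 0.196, limma). The carbonic anhydrases CA9 (0.94) and CA12 (0.04), the glucose transporter SLC2A1 (0.18) and the lactate exporter SLC16A3 (-0.09), all common hypoxia markers, had an unadjusted p of 0.05 or more. In the plot of members, the SE behind each interval ran from 0.13 for TMEM45A to 0.51 for PPP1R3C.

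**Figure D3:**
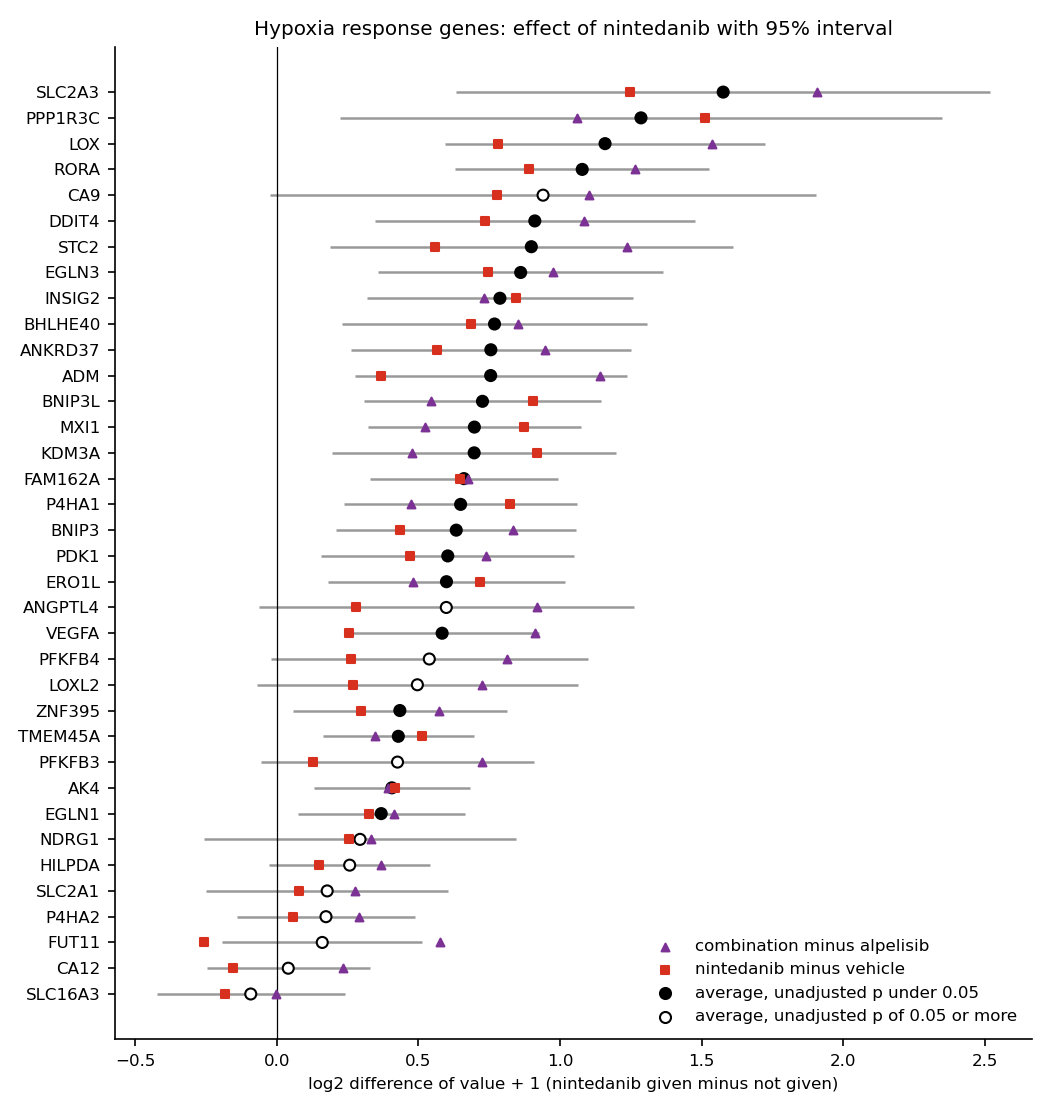
Averaged log2 difference (circles, nintedanib given minus not given) with its 95% interval (lines) for the 36 hypoxia response genes, and the difference in each stratum (triangles, combination minus alpelisib; squares, nintedanib minus vehicle); filled circles have an unadjusted p under 0.05. All but SLC16A3 lie above 0, and FUT11 is the one member with an unadjusted p under 0.05 for a difference between strata.

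A score for each list, the mean of log2(value + 1) over its members set to 0 at the mean of the 8 libraries without nintedanib, shows how single libraries contribute. Hypoxia scores were 0.36, 0.45, 1.08 and 0.81 in combination libraries and 0.70, 0.86, 0.61 and 0.09 in nintedanib libraries, against 0.02, -0.42, 0.54 and -0.39 with alpelisib and -0.10, -0.67, 0.56 and 0.47 with vehicle. Of 8 nintedanib libraries 5 were above every library without the drug. In turn, 3 libraries without it (alpelisib 3, vehicle 3 and vehicle 4) were above the lowest nintedanib library, nintedanib 4. That library also had the highest mouse share of reads. Combination 1, with the next lowest score among nintedanib libraries, had the next highest mouse share. The list's median stayed between 0.56 and 0.73 when any 1 library was left out. Across the 16 libraries, 19 of the 36 genes followed the gene of the same symbol in the mouse table with a Pearson r above 0.7, as did 1066 of 13416 genes that have one. The other 17 members had a median of 0.60, with 16 above 0 and 9 higher at an unadjusted p under 0.05; the part of reads that fit both genomes was not tested.

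**Figure D4:**
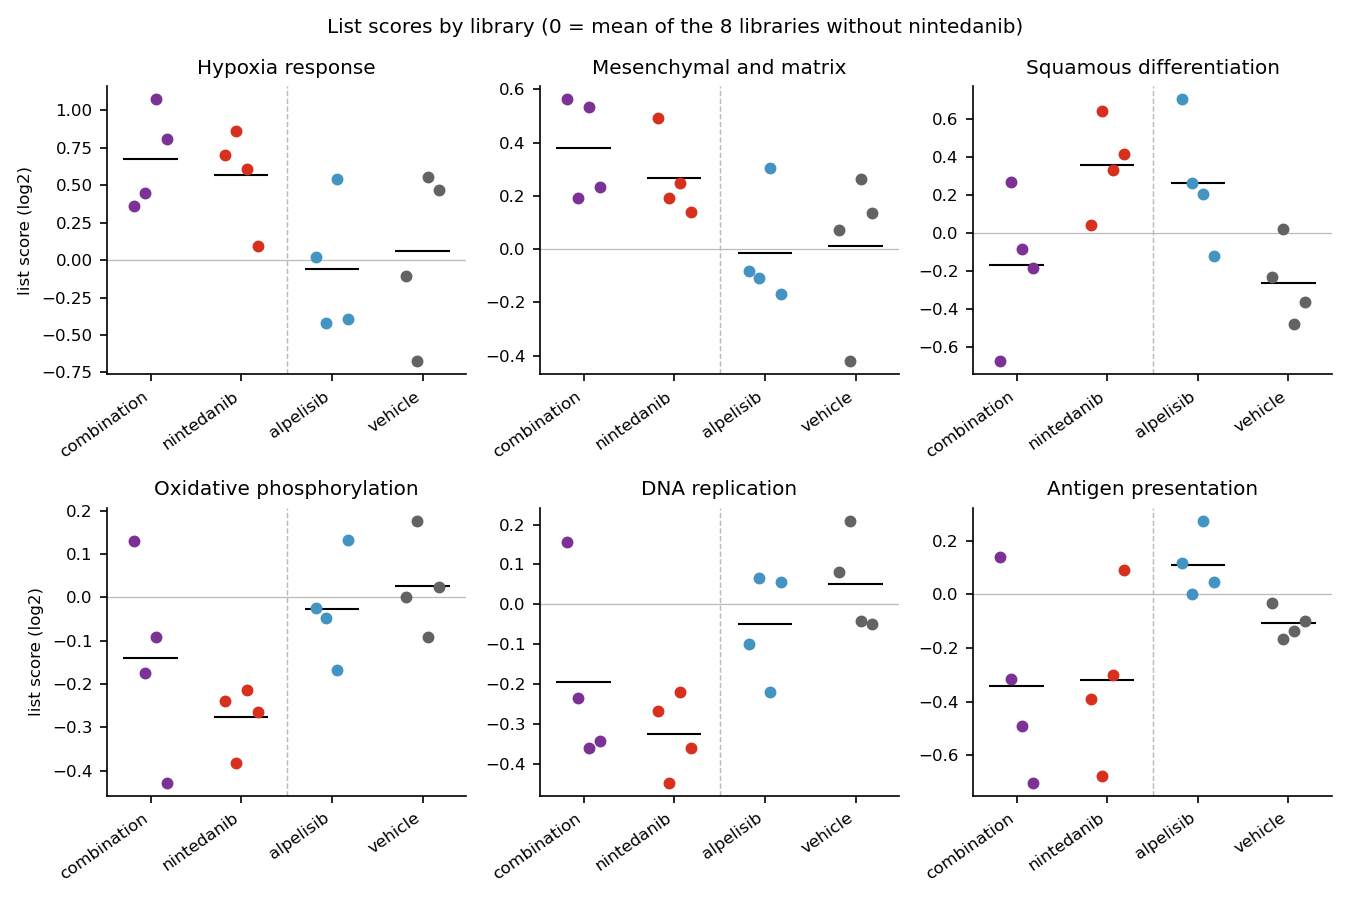
List score in each library (points, log2 units, 0 = mean of the 8 libraries without nintedanib) and group mean (lines) for 6 gene lists; combination and nintedanib libraries are left of the dashed line, alpelisib and vehicle libraries right of it. Hypoxia scores reach 1.08 with nintedanib and 0.56 without it; combination 1 stands with the libraries without nintedanib in oxidative phosphorylation, DNA replication and antigen presentation.

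Glycolysis shares SLC2A3 and 4 further members with the hypoxia list. Of its 21 members 18 were above 0, with a median of 0.16 (0.28 with alpelisib, 0.02 without it), and 4 were higher at an unadjusted p under 0.05 (all genes 7.2%). These were SLC2A3, PGK1, ENO2 and HK2. SLC2A3, a high-affinity glucose transporter, stood at 51.3, 35.8, 54.1 and 41.8 units in combination libraries and 27.0, 54.9, 58.2 and 35.3 in nintedanib libraries, against 4.56, 6.27, 77.1 and 6.28 with alpelisib and 12.4, 6.70, 40.7 and 23.7 with vehicle. Alpelisib 3 had the highest value of all, far from its group, and the difference was 1.58 (SE 0.45, adjusted p = 0.186, limma). PGK1, a glycolytic kinase that yields ATP, had medians of 5491 and 4119 units (0.44, SE 0.14, adjusted p = 0.21, limma), and the enolase ENO2 of 1267 and 889 units (0.91, SE 0.32, adjusted p = 0.229, limma). LDHA, GAPDH and ALDOA were at 0.23, 0.28 and 0.21, with an unadjusted p of 0.05 or more. Without single libraries the list's median ran from 0.05 to 0.23. PGK1 and ENO2 were among 7 members that followed their mouse counterpart with r above 0.7. The other 14 members had a median of 0.18, with 11 above 0 and 2 higher at an unadjusted p under 0.05. The part of reads that fit both genomes was not tested.

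Mitochondrial metabolism had medians below 0 in all 3 of its lists. In oxidative phosphorylation 23 of 27 members were below 0, with a median of -0.25, and 13 were lower at an unadjusted p under 0.05 (all genes 6.96%), with none higher. They included genes of complex I (NDUFB8, NDUFV1, NDUFB9, NDUFS3), complex II (SDHA), complex III (UQCRFS1, CYC1, UQCRC1), complex IV (COX5B, COX5A) and the ATP synthase (ATP5B, ATP5A1). COX5B ran from 4051 to 6363 units, median 5559.8, with nintedanib and from 5114 to 9395, median 8176, without it (-0.51, SE 0.13, adjusted p = 0.171, limma). COX5A had medians of 2360.0 and 2796 units, and only combination 1 (2623) reached above the lowest library without nintedanib (2599.8). No member of this list followed its mouse counterpart with r above 0.7. Without nintedanib 2, 8 members were lower at an unadjusted p under 0.05.

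The TCA cycle feeds electrons to the respiratory chain. CS, the citrate synthase that opens the TCA cycle, stood at 1241, 1265, 1069 and 929.5 units in combination libraries and 1080.3, 1013, 1053 and 1148 in nintedanib libraries, against 1348, 1924, 1184 and 1420.0 with alpelisib and 1738, 2078, 1327 and 1440.2 with vehicle. Combination 1 and combination 2 lay above alpelisib 3, every other nintedanib library was below every library without the drug, and the difference was -0.48 (SE 0.12, adjusted p = 0.171, limma). Of 16 TCA cycle genes 11 were below 0 and 5 were lower at an unadjusted p under 0.05 (all genes 6.96%), among them OGDH (-0.30), MDH2 (-0.27) and PDHA1 (-0.31). Without single libraries 2 to 7 were lower, with 2 without nintedanib 2 or vehicle 1 and 3 without combination 3 or alpelisib 2. Of 22 genes for mitochondrial translation and protein folding 18 were below 0 (median -0.23) and 7 were lower at an unadjusted p under 0.05 (all genes 6.96%). The lower count was 12 without combination 1 and 5 without combination 3, nintedanib 2 or vehicle 1. The 7 included TUFM, the mitochondrial elongation factor, with medians of 1597 and 2122 units (-0.49, SE 0.13, adjusted p = 0.171, limma). The ribosomal proteins MRPS12 (-0.56) and MRPS2 (-0.44) were also among them. CPT1A, which admits fatty acids to the mitochondrion and belongs to no list, had 699.5 to 1133 units, median 908, with nintedanib and 1089 to 1629.7, median 1338, without it (-0.57, SE 0.12, adjusted p = 0.116, limma); only combination 2 lay inside the range of the other 8.

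Proliferation genes also had medians below 0. In DNA replication 32 of 35 members were below 0 (median -0.27) and 16 were lower at an unadjusted p under 0.05 (all genes 6.96%), with none higher. Without alpelisib the median was -0.41 and 19 members were lower (all genes 4.7%), while with alpelisib it was -0.18 and 3 were lower (all genes 3.74%). A difference between strata had an unadjusted p under 0.05 for 7 of 35 members, each above 0 (all genes 6.23% in either direction). Combination 1 had a score of 0.16, the other 7 nintedanib libraries ran from -0.45 to -0.22, and the libraries without the drug from -0.22 to 0.21. MCM2, a subunit of the replicative helicase, stood at 800.2 to 1885 units, median 1280.0, with nintedanib and at 1499.6 to 2757, median 1878, without it (-0.61, SE 0.16, adjusted p = 0.171, limma). MCM4, MCM5 and MCM7 of the same complex were at -0.42, -0.48 and -0.46, while PCNA (0.02) and MCM6 (-0.04) were near 0. E2F2, a transcription factor that drives S phase genes, had 157, 149.7, 93.9 and 109.8 units in combination libraries and 97.4, 68.4, 106 and 114 in nintedanib libraries, against 248, 234, 154 and 154 with alpelisib and 244, 181, 199.5 and 189 with vehicle. Only combination 1 reached the lowest alpelisib libraries (-0.85, SE 0.17, adjusted p = 0.116, limma).

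The median of mitosis genes was -0.21 on average, -0.29 with alpelisib and -0.14 without it, with 28 of 33 below 0 and 11 lower at an unadjusted p under 0.05 (all genes 6.96%). FOXM1, the transcription factor of the G2 programme, ran from 505 to 1154 units, median 790.2, with nintedanib and from 1014 to 1501, median 1118, without it, with combination 1 the only library inside the range of the others (-0.61, SE 0.14, adjusted p = 0.153, limma). The kinases AURKB (-0.60), PLK1 (-0.59) and AURKA (-0.37), the chromosomal passenger CDCA8 (-0.47) and survivin, BIRC5 (-0.36), had an unadjusted p under 0.05, while MKI67 (-0.21) and CDK1 (-0.04) had an unadjusted p of 0.05 or more. CDCA3 and GTSE1, cell cycle genes outside the list, were at -0.71 (SE 0.15) and -0.63 (SE 0.13), each with an adjusted p of 0.116 (limma). The 20 G1 genes had a median of 0.07, with CCND3 (-0.56), CDK4 (-0.45) and CDKN2C (-0.34) lower and RBL2 (0.32) and CCND2 (0.50) higher at an unadjusted p under 0.05. MYC was at -0.12 and CCND1, cyclin D1, at -0.06.

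Ribosome biogenesis, which makes and assembles ribosomal RNA, had 20 of 24 members below 0 with a median of -0.21 in each stratum, and 9 were lower at an unadjusted p under 0.05 (5 without nintedanib 2 or vehicle 1; all genes 6.96%). PES1, a factor for the large ribosomal subunit, had 1149, 1065, 864 and 494 units in combination libraries and 872, 614, 1043 and 993 in nintedanib libraries, against 995, 1329.9, 1304 and 1316 with alpelisib and 1657, 1156, 1291 and 1147 with vehicle. Alpelisib 1 lay among the nintedanib libraries, and the difference was -0.56 (SE 0.16, adjusted p = 0.18, limma). TTI1, a chaperone of mTOR and related kinases outside the lists, was at -0.76 (SE 0.17, adjusted p = 0.127, limma), with medians of 235 and 473 units.

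Genes of antigen presentation had the lowest median of all lists, -0.32, with 19 of 21 below 0 and 10 lower at an unadjusted p under 0.05 (47.6%, against 6.96% of all genes). They comprised the immunoproteasome subunits PSMB8, PSMB9 and PSMB10 and its activator PSME2, the peptide transporters TAP1 and TAP2, the class II genes HLA-DRA, HLA-DMA and CD74, and NLRC5, the transactivator of class I genes. PSMB8 ran from 689 to 1492 units, median 1130.0, with nintedanib and from 1337 to 1813, median 1574, without it (-0.52, SE 0.14, adjusted p = 0.177, limma). HLA-DRA stood at 995, 440.2, 444 and 426 units in combination libraries and 466, 269, 455 and 1298 in nintedanib libraries, against 916, 1022, 881 and 1111 with alpelisib and 801, 1103, 730.1 and 789 with vehicle. The other 6 nintedanib libraries lay below every library without the drug, while combination 1 and nintedanib 4, the libraries with the most skeletal muscle transcript, did not: combination 1 lay among them and nintedanib 4 above them (-0.78, SE 0.23, adjusted p = 0.194, limma). Without those 2 libraries the list's median was -0.43, 14 members were lower at an unadjusted p under 0.05, and limma called HLA-DRA, HLA-DMA, CD74 and PSMB9 (all genes 0.277% lower). Both libraries were given nintedanib and scored above the other 6 nintedanib libraries, so leaving them out by itself widens the difference. No library without the drug was left out. With the mouse share of reads as a covariate limma called 7 of 21 members, those 4 genes and PSMB8, PSMB10 and PSME2, each lower (all genes 1.22%). The mouse share was highest in combination 1 and nintedanib 4, so these calls are not separate support. IFI30, a lysosomal reductase that serves class II loading, had medians of 390.0 and 699 units (-0.70, SE 0.15, adjusted p = 0.127, limma). B2M, the light chain of class I molecules, was at 0.40 with an unadjusted p of 0.05 or more. Antigen presentation scores were 0.14 in combination 1 and 0.09 in nintedanib 4, -0.70 to -0.30 in the other 6 nintedanib libraries, and -0.17 to 0.27 in the 8 libraries without the drug. The part of muscle or other host tissue in these values was not tested.

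Many interferon response genes are controlled together with antigen presentation. Of 30 such genes 21 were below 0 with a median of -0.17, and 4 were lower at an unadjusted p under 0.05 (13.3%, against 6.96% of all genes): OASL, IFIT3, IFI6 and OAS2. The median was -0.30 with alpelisib and -0.01 without it. Without the 2 muscle-rich libraries, both given nintedanib and with the highest scores among nintedanib libraries, 13 members were lower. Without single libraries 2 to 8 were lower, with 8 without combination 1 or nintedanib 4, 7 without combination 2 or vehicle 2, and 2 without combination 3, nintedanib 2, alpelisib 3 or vehicle 1. OASL, an oligoadenylate synthetase homologue, had medians of 908 and 1355 units (-0.57, SE 0.17, adjusted p = 0.196, limma), with the highest value, 2093, in alpelisib 3. IRF9, which transmits the interferon signal, was at -0.04.

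The 2 strata of squamous differentiation, the cornification programme of keratinocytes, had medians of opposite sign. Of 49 members 8 were higher and 8 lower at an unadjusted p under 0.05 (all genes 7.2% and 6.96%), and the averaged median of 0.22 combined 0.70 without alpelisib with -0.42 with it. The averaged values depended on single libraries: the median ran from 0.10 without combination 2 to 0.29 without nintedanib 1. The higher count was 17 without combination 1, 13 without alpelisib 1, 5 without combination 2, alpelisib 2 or alpelisib 4, and 4 without combination 3 or nintedanib 2. The lower count was 5 without combination 3 or nintedanib 1 and 4 without nintedanib 2, nintedanib 3, alpelisib 1 or vehicle 2. In nintedanib against vehicle tumours 22 members were higher and 1 lower at an unadjusted p under 0.05 (all genes 6.88% and 4.7%), and in combination against alpelisib tumours none was higher and 13 were lower (all genes 4.71% and 3.74%). For 24 of 49 members the difference between strata had an unadjusted p under 0.05, each below 0 (all genes 3.72%). Mean scores were -0.17 ± 0.39 in combination, 0.36 ± 0.25 in nintedanib, 0.26 ± 0.34 in alpelisib and -0.26 ± 0.22 in vehicle libraries (SD, n = 4 each). The interaction passed the adjusted threshold for 0 of 17663 genes (0%, limma, Benjamini-Hochberg), with 1100 genes (6.23%) at an unadjusted p under 0.05; edgeR called 0, with 1037 unadjusted, and DESeq2 10. The smallest adjusted p, 0.205, was shared by KLK10, MMP13, CDSN, SPRR2G and SPRR2E. Each of these 5 was above 0 without alpelisib and below 0 with it.

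CDSN, corneodesmosin, an adhesion protein of cornified cells, had 221, 646, 487 and 187 units in combination libraries, against 1039, 515, 714 and 392 with alpelisib, and 531, 1328, 806 and 608 in nintedanib libraries, against 221, 288, 242 and 234 with vehicle. Every nintedanib library was above every vehicle library, whereas combination libraries overlapped alpelisib libraries from below. KLK10, an epidermal kallikrein, stood at 727, 882, 779.6 and 546 units in combination libraries, against 1647, 1789.5, 1462 and 1517 with alpelisib, with no overlap. It was the 1 gene of 17663 (0.00566%) past the adjusted threshold in a stratum (-1.14, SE 0.18, adjusted p = 0.0486, limma). Its log2 difference lay between -1.24 and -1.01 in the alternatives run. DESeq2 called it (adjusted p = 0.0001445), edgeR did not (adjusted p = 0.0566), and limma did not when any of 13 of the 16 libraries was left out (adjusted p up to 0.369, without alpelisib 2). Nintedanib against vehicle gave 0 calls in limma (0%), with 2045 genes at an unadjusted p under 0.05, 2 calls in edgeR and 71 in DESeq2. The small proline-rich genes SPRR2E and SPRR2G belong to a family of close copies, so their counts are uncertain.

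Some differentiation genes differed in the same direction in both strata. CASP14, a protease of terminal keratinocyte differentiation that was not on the list, had 188, 309.6, 205 and 255 units in combination libraries and 144, 256, 237 and 231 in nintedanib libraries, against 174, 131, 163 and 100.5 with alpelisib and 81.0, 69.3, 141 and 82.5 with vehicle. Only nintedanib 1 lay inside the range of the other group, and its unadjusted p of 2.28e-05 was the smallest of all genes (0.99, SE 0.19, adjusted p = 0.116, limma). HOPX, a homeodomain protein of differentiating epidermis, had medians of 333 and 192 units (0.80, SE 0.19, adjusted p = 0.153, limma). KLK8 was lower in each stratum, with medians of 916 and 1299 units (-0.52, SE 0.13, adjusted p = 0.171, limma), and KLK9, which overlaps neighbouring kallikrein genes so that its count is uncertain, with 261 and 421 (-0.74, SE 0.16, adjusted p = 0.127, limma). TGM3 (-1.32), KRT4 (-0.83), KRT1 (-0.59) and KRT13 (-0.57) were lower at an unadjusted p under 0.05, and S100A7 (0.56), CSTA (0.47) and KRT16 (0.47) higher. ALDH3A1, an aldehyde dehydrogenase of squamous epithelia, had medians of 200.2 and 362 units (-0.91, SE 0.19, adjusted p = 0.116, limma). The basal keratins KRT5 (0.04) and KRT14 (0.03) and the basal regulator TP63 (0.08) had an unadjusted p of 0.05 or more.

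**Figure D5:**
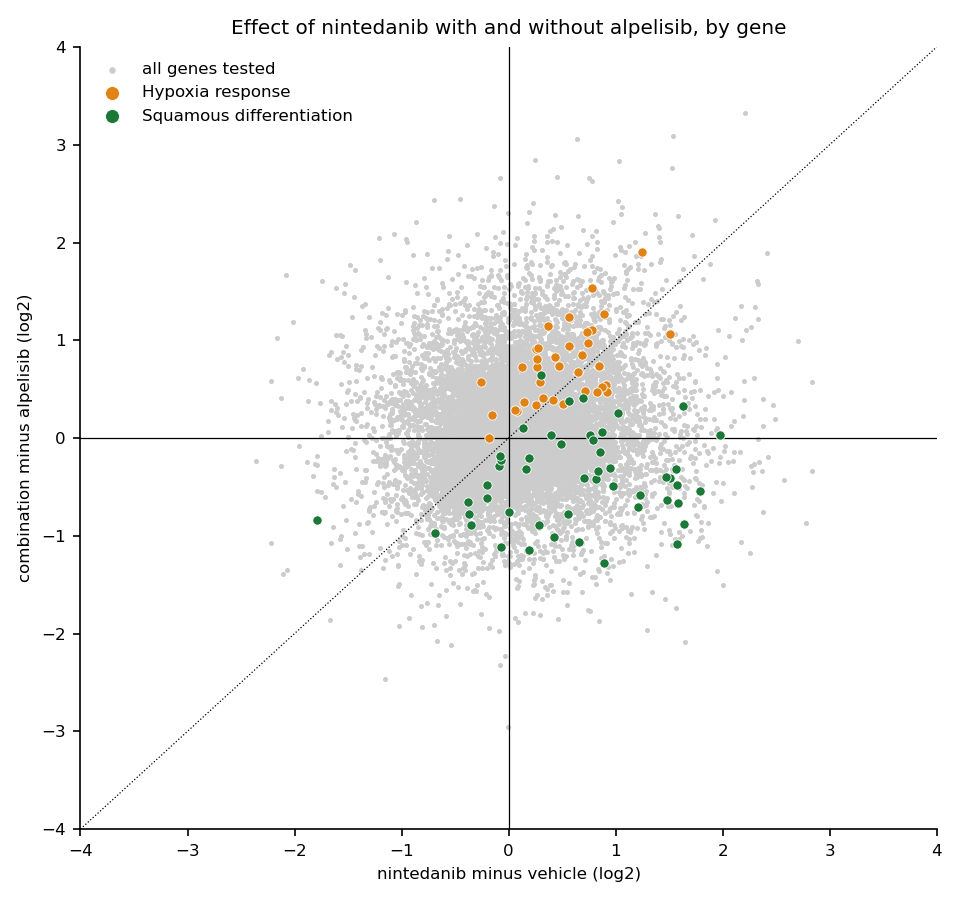
Log2 difference of each tested gene without alpelisib (x, nintedanib minus vehicle) and with it (y, combination minus alpelisib); grey points are all 17663 genes, orange the hypoxia response list, green the squamous differentiation list, and the dotted line marks equal differences. Hypoxia genes lie mostly right of and above the centre and squamous genes mostly right of and below it.

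The 2 strata share no library, so their likeness across genes can be described. Over 17663 genes the Pearson r of the 2 differences was 0.14, and 58.2% of genes had the same sign; over the 8832 genes at or above median expression r was 0.25 and 62.2% had the same sign. An unadjusted p under 0.05 was met by 2045 of 17663 genes without alpelisib and by 1492 with it. Of 223 genes that met it in both strata, 188 had the same sign, 76 higher and 112 lower. Both p-values of a gene use the same residual variance, so they are not independent. Genes are not independent of each other, and libraries of a stratum share their depth and host content across genes.

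In the mesenchymal and matrix list 22 of 25 were above 0 (median 0.34; 0.37 with alpelisib, 0.29 without it), with 9 higher (5 without combination 3; all genes 7.2%) and COL4A1 lower at an unadjusted p under 0.05. TAGLN, a smooth muscle and stress fibre protein, stood at 141, 121, 167 and 152 units in combination libraries and 110.5, 51.7, 91.6 and 85.8 in nintedanib libraries, against 44.8, 64.8, 93.5 and 95.3 with alpelisib and 77.2, 41.3, 67.1 and 61.0 with vehicle (0.72, SE 0.21, adjusted p = 0.189, limma). Every combination library was above every other library, and among nintedanib libraries only nintedanib 1 was above the 8 without the drug. VIM, vimentin, had medians of 66.6 and 30.4 units (0.83, SE 0.28, adjusted p = 0.215, limma), FN1, fibronectin, was at 0.90, and the matrix protein TNC had medians of 713 and 520.3 (0.37, SE 0.13, adjusted p = 0.225, limma). Mean values in the mouse table, normalised separately, were 1139 for TAGLN, 7500.5 for VIM and 6721 for TNC; the part of host transcript in these differences was not tested. The regulators SNAI1 (0.05), SNAI2 (0.06) and TWIST1 (0.07) were near 0, while ZEB2 was at 0.48 with an unadjusted p under 0.05. Of 19 proteases and inhibitors of the matrix 4 were higher (2 to 7 without single libraries) and 1 lower at an unadjusted p under 0.05 (all genes 7.2% and 6.96%). The list's median was 0.36 without alpelisib and -0.08 with it. SERPINB2, which inhibits urokinase, had medians of 130.5 and 70.4 units (0.79, SE 0.19, adjusted p = 0.164, limma). Its lowest nintedanib library stood at 111 and its highest library without the drug at 129. The lower gene was PLAT (-0.49, SE 0.19, adjusted p = 0.259, limma). IGFBP3, which binds insulin-like growth factors, had 1669 to 3974 units, median 2635, with nintedanib and 1086 to 2828, median 1581, without it (0.80, SE 0.19, adjusted p = 0.153, limma).

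Growth factor receptors signal through ERK and PI3K. Of 21 ERK output genes 1 was higher and 4 lower at an unadjusted p under 0.05 (all genes 7.2% and 6.96%), with a median of -0.08; without single libraries 2 to 5 were lower. The ETS factor ETV5 had medians of 90.2 and 119 units (-0.45, SE 0.18, adjusted p = 0.276, limma) and the immediate early gene EGR1 1314 and 1877 (-0.44, SE 0.19, adjusted p = 0.296, limma), while the feedback inhibitors DUSP6 (-0.12), SPRY2 (-0.16) and SPRY4 (0.15) had an unadjusted p of 0.05 or more and SPRY1 was higher (0.53). FOXO targets, which PI3K signalling represses, had a median of 0.18 with 18 of 23 above 0 and 5 higher (all genes 7.2%). The median was 0.32 without alpelisib and 0.06 with it. Without alpelisib 5 members were higher (all genes 6.88%), and with it 2 were higher and 1 lower (all genes 4.71% and 3.74%). For 3 of 23 members the difference between strata had an unadjusted p under 0.05, each below 0 (all genes 3.72%). KLF6, a Krüppel-like factor, stood at 1572 to 2712 units, median 2228, with nintedanib and at 820.1 to 1879, median 1312, without it (0.63, SE 0.16, adjusted p = 0.171, limma), and the unconventional cyclin CCNG2 had medians of 142 and 81.6 (0.80, SE 0.24, adjusted p = 0.19, limma). INSR (0.17), IRS2 (0.12) and ERBB3 (-0.13), receptors and adaptors of the same set, had an unadjusted p of 0.05 or more. TGFA, an EGFR ligand, had medians of 449 and 374 units (0.34, SE 0.13, adjusted p = 0.264, limma), and EGFR itself 11423 and 10078.

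Stress, lipid and apoptosis lists had medians between -0.19 and 0.08. In the ATF4 response to amino acid shortage 3 of 26 genes were higher and 3 lower at an unadjusted p under 0.05 (all genes 7.2% and 6.96%), with a median of -0.02. Without combination 2 the higher count was 5. The lower count was 5 without combination 1, combination 2 or vehicle 4 and 6 without vehicle 2. The 3 higher ones, VLDLR, DDIT4 and STC2, include 2 of the hypoxia list, and the lower ones were the serine synthesis enzyme PHGDH (-0.37) and the amino acid transporters SLC7A1 (-0.34) and SLC3A2 (-0.29). No endoplasmic reticulum chaperone of 17 had an unadjusted p under 0.05. Among 19 targets of NRF2, the regulator of antioxidant genes, 4 were lower (2 to 6 without single libraries, all genes 6.96%) and none higher. The quinone reductase NQO1 led them, with medians of 798 and 1151 units (-0.48, SE 0.13, adjusted p = 0.177, limma). Of 14 heat shock proteins 2 were lower, HSPA4 and HSPA1B (1 to 4 without single libraries, all genes 6.96%). Counts of HSPA1B are uncertain because HSPA1A is nearly identical. In cholesterol and fatty acid synthesis 2 of 28 were higher and 6 lower, the higher count near the share of all genes (7.2% higher, 6.96% lower). The lower count was 10 without vehicle 2, 2 without combination 4, nintedanib 2, alpelisib 2 or vehicle 1, and 3 without alpelisib 4. Among them, the fatty acid desaturase FADS1 had medians of 1070.2 and 1344 units (-0.33, SE 0.11, adjusted p = 0.209, limma). BCL2A1 rests on few reads, with medians of 3.78 units with nintedanib and 0.559 without it. Of 16 BCL2 family genes BCL2A1 and BCL2L2, which protect from apoptosis, were higher at an unadjusted p under 0.05 (all genes 7.2%). BIK, which promotes apoptosis, was lower at that threshold (all genes 6.96%). Autophagy and lysosome genes (1 of 19), basal (2 of 19) and luminal (1 of 17) epithelial genes had few members past that threshold (all genes 14.2%).

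In inflammatory genes nintedanib 3 stood apart. Of 29 NF-kB cytokine and acute phase genes 2 were higher at an unadjusted p under 0.05, LCN2 and IL1A, which is near the share of all genes (7.2%). The score of nintedanib 3 was 1.33 while the other 15 libraries ran from -0.25 to 0.31. The list's median of 0.18 became -0.01 without nintedanib 3. LCN2, lipocalin 2, a siderophore-binding protein, had medians of 456.6 and 200.04 units (0.91, SE 0.27, adjusted p = 0.196, limma), with a difference of -0.24 with alpelisib and 2.05 without it.

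The genes with the smallest p that had at least median expression included several outside every list; they are named because of those values. SLC25A43, a mitochondrial carrier protein, stood at 334, 260.3, 319.8 and 455 units in combination libraries and 324, 381, 348 and 374 in nintedanib libraries, against 304, 196, 222 and 193 with alpelisib and 212, 189, 233 and 216 with vehicle. Only combination 2 fell inside the range of the other 8 libraries (0.66, SE 0.14, adjusted p = 0.116, limma). HEPHL1, a copper-dependent ferroxidase, had medians of 759 and 373 units (0.90, SE 0.19), the histone demethylase gene JHDM1D 426 and 203 (0.85, SE 0.19), the calcium buffer CALB1 669 and 419 (0.69, SE 0.16), NREP 556 and 306 (0.78, SE 0.19) and C1orf21 670.2 and 438 (0.60, SE 0.14). On the lower side, the homeobox gene IRX3 had medians of 812 and 1492 units (-0.76, SE 0.16) and FAM102A 827 and 1272 (-0.70, SE 0.15). Their adjusted p ran from 0.116 to 0.153 in limma, and DESeq2 called each of these 8 genes (all genes 0.759%). Since the genes were chosen by their p in the same libraries, those calls are not independent support.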

How the data were processed

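Tumour RNA was sequenced from its 3′ ends, and per the submitters' processing notes reads were aligned with TopHat to hg19 (human) and mm10 (mouse). No counting tool, annotation or scaling method is stated in the labels. The authors deposited 1 table per genome with a normalised signal per gene and library (unit signal). Each value was a whole read count times a constant of its library, for 100% of values within a tolerance of 0.01, so reads were recovered. Because the values are normalised, limma 3.58.1 (R 4.3.3) was fitted to log2(value + 1), with a mean for each of the 4 groups, a variance trend and Benjamini-Hochberg adjustment over all 17663 genes tested. An adjusted p under 0.05 is called past the threshold. Differences are given on that scale, which understates changes of low genes.

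Alternatives included edgeR 4.0.16 and DESeq2 1.42.0 on the recovered reads, other filters, scalings and a pseudocount of 0.1, the mouse share of reads as a covariate, and leaving out single libraries. The limma and edgeR tests were run on simulated data, whereas DESeq2 was not. Human depth was 8303617 to 18568119 reads and mouse depth 3606008 to 6850491 reads per library; low genes rest on few reads. Genes were named as those with the smallest p in a list (3 at most), the target kinases and PIK3CA, and the 5 genes with the smallest interaction p. The rule for genes past the averaged threshold gave none, so the 12 higher and the 12 lower genes with the smallest p at median expression or above, and the 12 genes whose groups did not overlap, were chosen after their values were seen, as were other list members given by a value. The comparison, the lists and the markers were chosen with earlier results of these data known. The host's own transcripts were not analysed here beyond host content. A few genes that the naming rule gives are not reported here.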

Additional observations from a re-analysis of the deposited data

Results flagged for a closer look

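In 37 of 615 groups of 4 libraries, 1 library lay far from the other 3 for its range (Dixon's test at the 95% level, which chance alone would meet in about 1 group of 20). No cause was tested.

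List scores, in log2 units, set 6 libraries apart. The nintedanib target kinases score of nintedanib 2 was -0.44, with the others of its group at 0.01 to 0.04. The glycolysis score of nintedanib 4 was -0.0745, with the others of its group at 0.26 to 0.28. The TCA cycle and pyruvate dehydrogenase score of combination 1 was 0.034, with the others of its group at -0.23 to -0.21. The endoplasmic reticulum chaperones score of combination 2 was -0.035, with the others of its group at 0.13. The metalloproteinases and plasminogen system score of combination 3 was 0.41, with the others of its group at 0.09 to 0.13. The interferon response score of alpelisib 3 was 0.45, with the others of its group at 0.02 to 0.09.

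Among genes, in normalised units, the library and the rest of its group were as follows. In the combination group, CDCA8 stood at 903 in combination 1 against 517 to 529 in the others, HLA-DRA stood at 995 in combination 1 against 426 to 444 in the others, FGFR1 stood at 4.78 in combination 2 against 9.55 to 10.8 in the others. HEPHL1 stood at 921 in combination 3 against 560.4 to 597 in the others. In the nintedanib group, OGDH stood at 1780.5 in nintedanib 4 against 1355 to 1409 in the others, FOXM1 stood at 505 in nintedanib 2 against 768 to 813 in the others, VLDLR stood at 147 in nintedanib 2 against 102 to 108 in the others. DDIT4 stood at 3512 in nintedanib 4 against 6246 to 6892 in the others, LCN2 stood at 337 in nintedanib 1 against 573 to 636 in the others, IL1A stood at 269 in nintedanib 3 against 114 to 117 in the others. CSF2 stood at 0 in nintedanib 2 against 3.37 to 3.82 in the others, BCL2L2 stood at 315 in nintedanib 4 against 334 to 336 in the others, LCK stood at 6.96 in nintedanib 1 against 0 in the others. HEPHL1 stood at 489.7 in nintedanib 4 against 962 to 1027 in the others. In the alpelisib group, SLC2A3 stood at 77.1 in alpelisib 3 against 4.56 to 6.28 in the others, MRPS12 stood at 1283 in alpelisib 2 against 1372 to 1389 in the others, TUFM stood at 2453 in alpelisib 2 against 2122 to 2128 in the others. PES1 stood at 995 in alpelisib 1 against 1304 to 1329.9 in the others, EGF stood at 9.40 in alpelisib 2 against 0.759 to 1.05 in the others, OASL stood at 2093 in alpelisib 3 against 1293 to 1357 in the others. BCL2A1 stood at 10.6 in alpelisib 1 against 0 in the others, IRX3 stood at 1265 in alpelisib 3 against 1508 to 1517 in the others, TTI1 stood at 316 in alpelisib 1 against 473 to 486 in the others. In the vehicle group, FLT4 stood at 1.13 in vehicle 4 against 0 in the others, ENO2 stood at 221 in vehicle 2 against 1081 to 1240.1 in the others, CDCA8 stood at 844 in vehicle 4 against 942 to 963 in the others. CCND3 stood at 835 in vehicle 1 against 429 to 471 in the others, HSP90B1 stood at 1524 in vehicle 1 against 2661 to 2792 in the others, NEU1 stood at 178 in vehicle 2 against 286 to 314 in the others. EGF stood at 3.40 in vehicle 3 against 0.953 to 1.13 in the others, CSF2 stood at 2.26 in vehicle 4 against 0 in the others.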

How the results depend on the processing

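The number of genes past the threshold for the averaged effect, 0 in limma, was 134 in DESeq2, 335 with the mouse share as a covariate, 27 with values scaled to human plus mouse reads, 74 without the 2 muscle-rich libraries, and 0 to 11 without single libraries (11 without nintedanib 4, 3 without vehicle 3, 1 without alpelisib 3). For the interaction, 0 became 10 in DESeq2, 2 without the variance trend, 3 with the replicate block, and 0 to 8 without single libraries. For nintedanib against vehicle, 0 became 71 in DESeq2, 2 in edgeR, 46 with the covariate, 8 with the replicate block, 1 without the trend or without a filter on low values, and 0 to 4 without single libraries. For combination against alpelisib, 1 became 19 in DESeq2 and 14 without the muscle-rich libraries. It became 0 in edgeR, with no filter, a value of at least 10, a pseudocount of 0.1, quantile normalization or the replicate block, and was 0 to 1 without single libraries. The cause of these shifts was not tested. Same-numbered libraries of different groups had deviations that correlated at -0.22 to 0.15 (2 of 24 pairs over 0.1), and 4 of 16 libraries correlated best with their own number, so the replicate number was not used as pairing; with the block the averaged effect had 0 calls.

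Many named genes were chosen for a small p in these libraries, and the alternatives refit the same libraries. Kept signs were therefore likely from the start and are not independent support. The 125 named genes kept their direction in 3583 of 3603 values under the alternatives. The 20 others were low or near 0: LYN was 0.0037 in DESeq2, SRC 0.0152 with quantile normalization, and without single libraries LYN ran from -0.12 to 0.048, SRC from -0.11 to 0.057, LCK from -0.59 to 0.025, KDR from -0.35 to 0.092 and RET from -0.0063 to 0.61. The difference in mouse share ran from 1.27 to 3.75 percentage points without single libraries. Scaling to human plus mouse reads moved the median of all genes to -0.01. Precision was limited by 4 libraries a group and, for low genes, by few reads.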
